A study of Mus musculus with 24 samples.

Results

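The comparison set sorted bulge hair follicle stem cells (HFSC) directly against label-retaining cells (LRC) of the tail epidermis in mice 2 months old. It used 6 of the 24 libraries of the series, 3 HFSC and 3 LRC, chosen by their titles, and every gene that passed a low-count filter over those 6 libraries, 14548 of the 49585 genes listed. The study measured total RNA of LRC, of non-label-retaining cells (nLRC) and of HFSC at 2 months, 1.5 years and 2 years. The title of the series names a comparison of epidermal stem cells that cycle slowly or fast with those of the follicle, in young and in old animals. All groups, HFSC included, came from C57BL/6J mice that carried K5-tTA and pTRE H2B-GFP and had eaten doxycycline in the chow for 2 weeks. In this system the keratin 5 promoter drives the transactivator in basal keratinocytes, and the agent stops the synthesis of green histone, which each division then dilutes. The label therefore reports divisions only of cells in which that promoter had been active. Tail skin was dissociated in trypsin, stained and sorted into Trizol. The antibodies and gates, and whether the replicates came from separate or pooled animals, are not given in the sources used here, so p-values measure the spread between these samples, which may be technical.

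The bulge is the niche below the sebaceous gland where the stem cells of the hair follicle rest between hair cycles and from which each new follicle is rebuilt. Its cells are known for the surface protein CD34, for keratin 15 and for factors such as LHX2, SOX9 and TCF7L1. WNT signals start growth of the follicle, BMP signals keep its stem cells at rest, and hedgehog and FGF signals act between them. The epidermis between the follicles is renewed from its own basal layer, whose cells carry keratins 5 and 14 and, on leaving it, switch to keratins 1 and 10 and to cornification genes. The submitters describe LRC as slow-cycling and nLRC as fast-cycling stem cells of the epidermis.

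The libraries held 8421582 to 14093720 reads over genes. HFSC replicate 2 was the shallowest and stood apart. Exons took 34.6% of its gene reads against 48.6% to 60.1% in the other 5 libraries, and the ribosomal RNA gene Rn18s-rs5 took 26.8%. LRC replicate 1 had 16869 genes with 10 reads or more, against 13148 to 14545 in the others. The first axis of a multidimensional scaling, with 53.3% of the variance, separated HFSC from LRC, and the second, with 25.1%, separated LRC replicate 1 from LRC replicate 3. Replicates 1 and 2 of both groups belonged to one set of libraries and replicate 3 to another, by the set numbers in the names of the deposited files, and this second set holds 1 library a group.

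Markers of other cells were read before the results. Endothelial genes were higher in HFSC: 9 of 11 tested were called higher, with a median log2 fold change of 4.11, against 9.79% of all genes tested called higher. The summed level of the list was 134, 363 and 263 CPM (a gene's read count relative to the scaled total of its library) in HFSC replicates 1, 2 and 3, and 38.3, 22.9 and 15.9 CPM in LRC replicates 1, 2 and 3. Vwf, the clotting factor stored in endothelium, stood at 16.0, 110 and 53.6 CPM in HFSC and at 3.79, 0.844 and 0.369 CPM in LRC. Plvap, the diaphragm protein of vessel walls, stood at 14.5, 39.7 and 43.5 CPM against 0.572, 0.461 and 0.246 CPM. Both groups of both genes were apart, and HFSC replicate 1 was the lowest of its group. Of the list, 5 genes were called without HFSC replicate 2 and also without LRC replicate 2, and without LRC replicate 3 the call of Vwf was lost (adjusted p = 0.0511). The defining genes Cldn5 and Sox17 were too low to test, at 1.49 CPM or less.

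Of the fibroblast list 4 of 9 genes were called higher and Thy1 lower, beside 9.79% and 8.23% of all genes. The summed level was 145 to 169 CPM in HFSC and 61.2 to 65.6 CPM in LRC, while Pdgfra, Lum and Dpt lay at 0.716 CPM or less in every library. Only 2 of the 4 remained called higher without HFSC replicate 1, without HFSC replicate 2 or without LRC replicate 2. The melanocyte list summed to 105.6 to 237 CPM in HFSC and to 36.9 to 43.6 CPM in LRC. Its 1 call of 4 tested was Mitf, at 101, 224 and 96.9 CPM against 28.7, 35.5 and 30.8 CPM (2.15 ± 0.33, adjusted p = 0.00429), with 17.0% of its reads in exons, while the pigment enzyme gene Tyr reached 0.644 CPM. The Schwann cell list was lower in HFSC, at 34.2 to 38.0 against 106 to 151 CPM, with Mbp and Erbb3 called lower and S100b higher of 6 tested. Mbp, of myelin, changed by -3.85 ± 0.33, and the call of S100b was lost without any 1 library other than LRC replicate 3 (adjusted p up to 0.147). The part of these cells in the results was not tested. The Merkel cell, T cell and myeloid genes Atoh1, Cd3e and Cd207 reached 0.0767, 0.215 and 0.215 CPM. The bulk libraries cannot tell more cells of a type from more RNA per cell. The part of endothelial RNA in the results below was not tested. Some genes that endothelium is also known to express are marked below. A gene without such a mark was not shown to be free of endothelial RNA.

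Between the groups, edgeR's quasi-likelihood test called 2621 genes, 18.0% of those tested, with a threshold of 0.05 on the p-value after Benjamini-Hochberg adjustment. Of these, 1424 (9.79%) were higher and 1197 (8.23%) lower in HFSC, and 1769 of the called genes differed by more than 1 on the log2 scale. The median log2 fold change of all genes tested was -0.01. The count was 1657 without HFSC replicate 1, 1720 without HFSC replicate 3 and 1295 without LRC replicate 2, and 1263 with the first library set alone. Among genes described here as called, the first library set alone also lost Krt15, Krt14, Nfatc1, Vwf, Fbln7, Gli2, Rnf43, Tle1, Stra6, Cdh3 and Gja1. Also lost with that set were Itgb1, Mt2, Krt7, Tcf7, Wnt9a, Fst, Cdkn2c, S100b, Sbsn, Dmkn and Notch2. The fit over 24 libraries lost Id1, Spry2, Tcf7, Tgfbr2, Wnt9a, Krt7, Fst, Itgb1, Mt2, Cdkn2c, Stra6, S100b, Sbsn, Dmkn and Notch2. The fit with no low-count filter lost Cenpf, Eng, Vwf, S100b, Sbsn, Dmkn and Notch2. In the plot of all genes the called genes lie on both sides at every level.

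**Figure D1:**
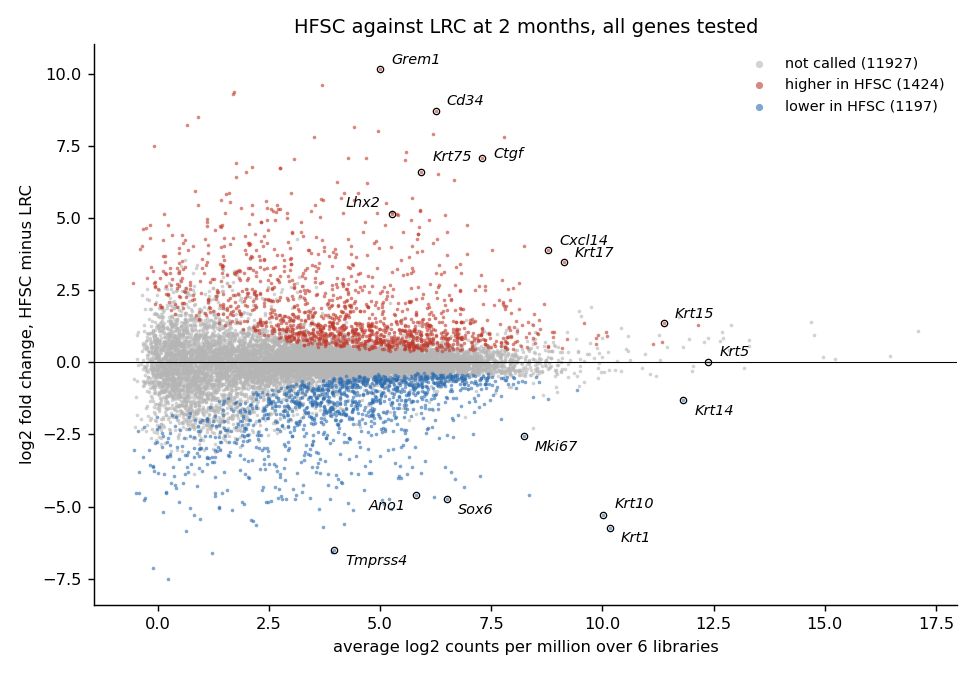
Each point is 1 of the 14548 genes tested: the x axis is the average log2 CPM over the 6 libraries and the y axis the fitted log2 fold change, HFSC minus LRC. Red points (1424) were called higher and blue points (1197) lower in HFSC, grey points were not called, and named genes are ringed. The value of Grem1 rests on 2 reads in LRC.

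The 12 genes that rose most in HFSC, by the rule given with the processing, were Grem1, Fabp4, Cd34, Scrg1, Ppp1r3b, Krt90, Aqp1, Krt42, Shisa2, Ctgf, Atp2a3 and Krt8. Grem1, a secreted antagonist of BMP ligands (chromosome 2, 113746164 to 113758646 in mm10, minus strand), stood at 58.6, 56.8 and 76.1 CPM in HFSC and at 1, 0 and 1 reads in the LRC libraries. The ratio of the pooled rates was 1426, with an exact 95% interval of 394 to 11785 that covers counting error only. Cd34, the sialomucin used to sort bulge cells (chromosome 1, 194938819 to 194961279), stood at 197, 140 and 118 CPM in HFSC and at 0.858, 0.153 and 0.0615 CPM in LRC. Its log2 fold change was 8.73 ± 0.54 (SE, adjusted p = 8.52e-05). CD34 is also an endothelial protein, and its level was highest in HFSC replicate 1, where the summed endothelial level was lowest. The part of endothelial RNA in its level was not tested.

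Ctgf, a matricellular protein, stood at 412, 278 and 248.8 CPM against 2.58, 2.38 and 1.91 CPM (7.10 ± 0.28, adjusted p = 1.65e-05). Shisa2, which holds back FGF and WNT receptors in the endoplasmic reticulum, rose by 7.28 ± 0.30 and Krt90 by 7.90 ± 0.44 on the log2 scale. Krt42 stood at 559, 181 and 581 CPM in HFSC and at 1.72, 1.84 and 2.34 CPM in LRC, so that HFSC replicate 2 was the lowest of its group and still far above LRC. Fabp4, a fatty acid carrier of fat cells and capillary endothelium, and Aqp1, a water channel of endothelium, were lowest in HFSC replicate 1, like the vessel markers. Fabp4 stood at 14.6, 29.5 and 33.7 CPM and Aqp1 at 12.6, 30.6 and 25.7 CPM in HFSC replicates 1, 2 and 3. LRC held 1 read of Fabp4 in all and 4 reads of Aqp1.

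The 12 that fell most were Tmprss4, Krt1, Calm5, Skint4, Krt10, Clec2g, Wnt3, Adh7, Chst3, Sox21, Tnfrsf19 and Sox6. Krt1 (chromosome 15, 101845426 to 101850794) stood at 29.1, 38.1 and 59.5 CPM in HFSC and at 1691, 2361 and 2697 CPM in LRC. Krt10 (chromosome 11, 99385254 to 99389364) stood at 54.3, 43.2 and 56.6 CPM against 1994, 2080 and 2006 CPM. This pair of partner keratins of the suprabasal layer changed by -5.73 ± 0.37 and -5.30 ± 0.20 (adjusted p = 9.61e-05 and 1.47e-05). Sox6, an SRY-box factor, stood at 4.82, 9.26 and 5.96 CPM in HFSC and at 206, 199 and 121 CPM in LRC (-4.75 ± 0.32). Only 9.4% of its gene reads lay in exons, and 5.6% for Clec2g, so these values come mostly from introns. Tnfrsf19, the receptor also called TROY, stood at 2.55, 2.01 and 2.31 CPM against 62.8, 74.8 and 51.5 CPM (-4.76 ± 0.21, adjusted p = 2.11e-05). Genes of close families, such as these keratins, Calm5 and Skint4, are uncertain where the counting may have split reads between copies.

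Follicle transcription factors were mostly higher in HFSC. Of 26 listed, 25 were tested, 13 were called higher and 2 lower, beside 9.79% and 8.23% of all genes, and their median log2 fold change was 0.62 against -0.01 over all genes. Lhx2, a LIM homeobox factor of the bulge (chromosome 2, 38339281 to 38369733), stood at 69.4, 82.6 and 73.7 CPM in HFSC and at 2.43, 2.38 and 1.66 CPM in LRC (5.12 ± 0.19, adjusted p = 1.47e-05). Tbx1, a T-box factor tied to stem cell self-renewal in the follicle, stood at 99.9, 101 and 110 CPM against 0.930, 2.53 and 2.52 CPM (5.68 ± 0.32). The HFSC libraries of both genes lay close together, and every one was far above every LRC library.

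Sox9 and Tcf7l1, which are also expressed in other epithelial cells, differed less. Sox9 stood at 318, 332 and 399 CPM in HFSC and at 64.3, 83.3 and 124 CPM in LRC (1.95 ± 0.25, adjusted p = 0.00178). Tcf7l1, a repressor of WNT target genes, stood at 175, 174 and 131 CPM against 66.7, 35.8 and 33.6 CPM (1.82 ± 0.28, adjusted p = 0.0043). Its exons held 22.8% of its gene reads. Nfatc1, the calcium-regulated factor that keeps bulge cells at rest, rose by 0.76 ± 0.18 (adjusted p = 0.0243), a call that was lost without LRC replicate 2 (adjusted p = 0.112) and without LRC replicate 3 (adjusted p = 0.0557). Sox4 rose by 2.56 ± 0.26 and Tcf7l2 by 1.47 ± 0.16. Sox21 and Gata3, a factor of the inner root sheath and of the epidermis, were the 2 that fell, by 4.88 ± 0.27 and 1.05 ± 0.14 on the log2 scale. Foxc1 and Hoxc13 were among the 10 with no call, with values of 0.52 ± 0.38 and 0.34 ± 0.23.

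Of 20 listed bulge markers, 18 were tested, 12 were called higher and none lower, beside 9.79% and 8.23% of all genes (median 2.50). Lgr5, the R-spondin receptor of cycling stem cells (chromosome 10, 115450311 to 115587780), stood at 71.0, 101 and 91.4 CPM in HFSC and at 4.36, 3.68 and 3.45 CPM in LRC (4.51 ± 0.19, adjusted p = 2.09e-05). Angptl7 rose by 5.66 ± 0.50, with 12.1, 27.6 and 35.9 CPM in HFSC replicates 1, 2 and 3, and was lowest in HFSC replicate 1, as was the endothelial sum. Krt15 stood at 3605, 3998 and 3891 CPM against 923, 1564 and 2000.0 CPM (1.36 ± 0.29, adjusted p = 0.0175). The groups were apart, and the call was lost without HFSC replicate 3 (adjusted p = 0.064) and without LRC replicate 2 (adjusted p = 0.0813). Krt24, another bulge keratin, was at 46.9, 61.0 and 42.5 CPM in HFSC and at 31.1, 55.6 and 54.4 CPM in LRC, so the groups overlapped (0.09 ± 0.25, adjusted p = 0.846). Itga6, the integrin used to sort basal cells, overlapped too, at 470 to 491 against 409 to 488 CPM (0.14 ± 0.14, adjusted p = 0.558).

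Of 13 simple and follicle keratins tested, 5 were called higher and Krt80 and Krt7 lower, beside 9.79% and 8.23% of all genes. The other 6 had no call, among them Krt73, Krt25, Krt35 and Tchh of the inner root sheath and hair. Krt75, of the companion layer between the root sheaths (chromosome 15, 101563345 to 101573904), stood at 120, 103 and 139 CPM in HFSC and at 1.57, 0.691 and 1.42 CPM in LRC (6.60 ± 0.28, adjusted p = 1.95e-05). Krt8, a keratin of simple epithelia and of Merkel cells, stood at 74.2, 33.6 and 46.2 CPM against 0.143, 0.844 and 0.185 CPM (7.07 ± 0.56). Its usual partner Krt18 was at 0.926 CPM or less, and the Merkel genes Atoh1, Krt20 and Sox2 had at most 0.154 CPM in any library. Krt17 stood at 1185, 703 and 1204 CPM against 85.4, 73.9 and 122 CPM (3.46 ± 0.30), and Krt6a rose by 2.01 ± 0.27. Krt7 kept no call without HFSC replicate 1 (adjusted p = 0.0937), HFSC replicate 3 (0.103), LRC replicate 2 (0.0769) or LRC replicate 3 (0.0824). In the plot of levels by library, Lhx2 to Krt17 lie higher and Krt14 to Sox21 lower in every HFSC library than in any LRC library.

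**Figure D2:**
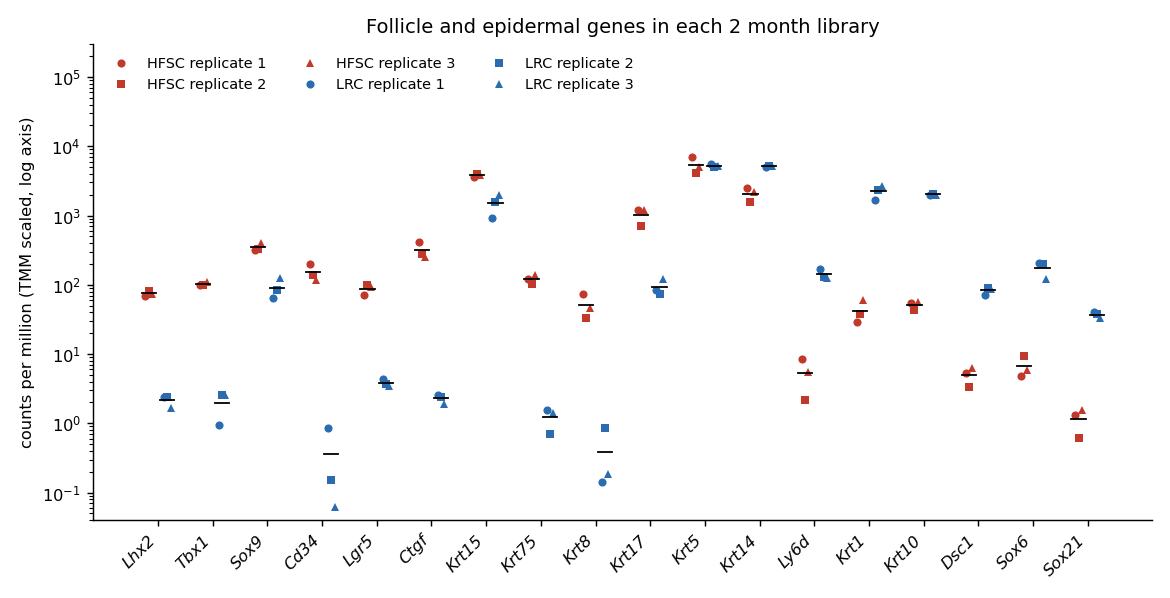
CPM of 18 genes in each 2 month library on a log axis, HFSC in red and LRC in blue, with a marker shape for each replicate number and a black line at the mean of 3. Only Krt5 overlaps between the groups: its HFSC libraries run from 4169 to 6934 CPM and its LRC libraries from 5088 to 5571 CPM.

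Of 17 upper follicle and sebaceous markers tested, 7 were called lower in HFSC and 2 higher, beside 8.23% and 9.79% of all genes. The median was -0.97, and 8 had no call. The summed level of the list overlapped between the groups, at 1097 to 1789 CPM in HFSC and 730.4 to 1181 CPM in LRC. Krt17, with the levels given above, held most of that sum in every HFSC library. The rest of the list summed lower in every HFSC library than in any LRC library. Krt79, of the upper follicle duct, stood at 18.7, 10.7 and 25.1 CPM in HFSC and at 155, 313 and 390 CPM in LRC (-3.96 ± 0.43, adjusted p = 0.000858). Plet1, a surface protein of the isthmus, fell by 1.63 ± 0.16 on the log2 scale, and Acsbg1 by 2.31 ± 0.22. Lrig1 and Lgr6, which mark stem cells above the bulge, had values of 0.06 ± 0.20 and -0.28 ± 0.24 and no call. The count of 7 was 4 without HFSC replicate 1 and without LRC replicate 2.

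Basal keratinocyte genes were split, with 6 of 20 called higher and 6 lower, beside 9.79% and 8.23% of all genes (median 0.08). Krt5 did not pass the test (0.03 ± 0.25, adjusted p = 0.954). Its partner Krt14 stood at 2487, 1562 and 2183 CPM in HFSC and at 5058, 5220 and 5218 CPM in LRC (-1.31 ± 0.23, adjusted p = 0.00765). The first library set alone gave the same direction for Krt14 with an adjusted p of 0.124. Ly6a, the antigen Sca-1 of the interfollicular epidermis, stood at 1.32, 2.93 and 1.34 CPM against 22.7, 29.3 and 25.9 CPM (-3.88 ± 0.31, adjusted p = 0.000249). Ly6d fell by 4.68 ± 0.38 and Aldh3a1, an aldehyde dehydrogenase of surface epithelia, by 4.02 ± 0.24 on the log2 scale. The 6 called higher were Thbs1, Cdh3, Gja1, Itgb1, Mt2 and Itgb4. Their number was 2 without HFSC replicate 1, HFSC replicate 3 or LRC replicate 3 and 1 without LRC replicate 2, while the number called lower was 6 or 7 without any 1 library.

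Dlx1 and Slc1a3, which mark compartments of tail epidermis, had no call. Dlx1 stood at 0.850, 1.70 and 0.522 CPM in HFSC and at 3.005, 3.38 and 2.65 CPM in LRC (-1.60 ± 0.52, adjusted p = 0.0759), and Slc1a3 overlapped between the groups (1.15 ± 0.59, adjusted p = 0.237). Of 10 scale keratins, 4 could be tested, and Krt90 alone was called. It was higher in HFSC, at 204, 135 and 102 CPM against 0.858, 0.767 and 0.246 CPM in LRC.

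Genes of epidermal differentiation formed the largest group of falls after proliferation among the lists in the plot of list counts. Of 28 tested, 19 were called lower and 4 higher, beside 8.23% and 9.79% of all genes, with a median of -1.84. Dsc1, a desmosomal cadherin of the upper layers, stood at 5.29, 3.40 and 6.26 CPM in HFSC and at 70.5, 91.4 and 87.0 CPM in LRC (-4.02 ± 0.23, adjusted p = 6.11e-05). Casp14, the caspase of cornification, fell by 4.73 ± 0.37 and Dsg1a by 1.96 ± 0.17 on the log2 scale. Lor, the main protein of the cornified envelope, was at 1.23 CPM or less in all 6 libraries and was not tested. Members of the list that rose were Calml3, Spink5, Sbsn and Dmkn. Calml3, a calmodulin-like protein, stood at 494, 406 and 402 CPM against 49.9, 73.8 and 95.7 CPM (2.57 ± 0.25), and Spink5, a protease inhibitor, at 720, 504 and 230 CPM against 69.9, 74.8 and 70.5 CPM (2.76 ± 0.38). Of the 4, 2 or 3 kept a call in each fit without 1 library, since Sbsn and Dmkn were lost in nearly all of them, with adjusted p up to 0.183 and 0.208. Without each library in turn, 16 to 18 of the 28 were still called lower.

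Junction genes followed: 10 of 24 were called lower and 2 higher, beside 8.23% and 9.79% of all genes (median -0.49). Cldn1, the tight junction protein of the granular layer, stood at 44.7, 46.3 and 45.6 CPM in HFSC and at 84.0, 100 and 113 CPM in LRC (-1.12 ± 0.14, adjusted p = 0.00145). The core junction genes Cdh1 and Dsp had no call, with values of -0.26 ± 0.14 and -0.12 ± 0.18. Without LRC replicate 2 the number called lower was 5 and the number called higher 0.

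**Figure D3:**
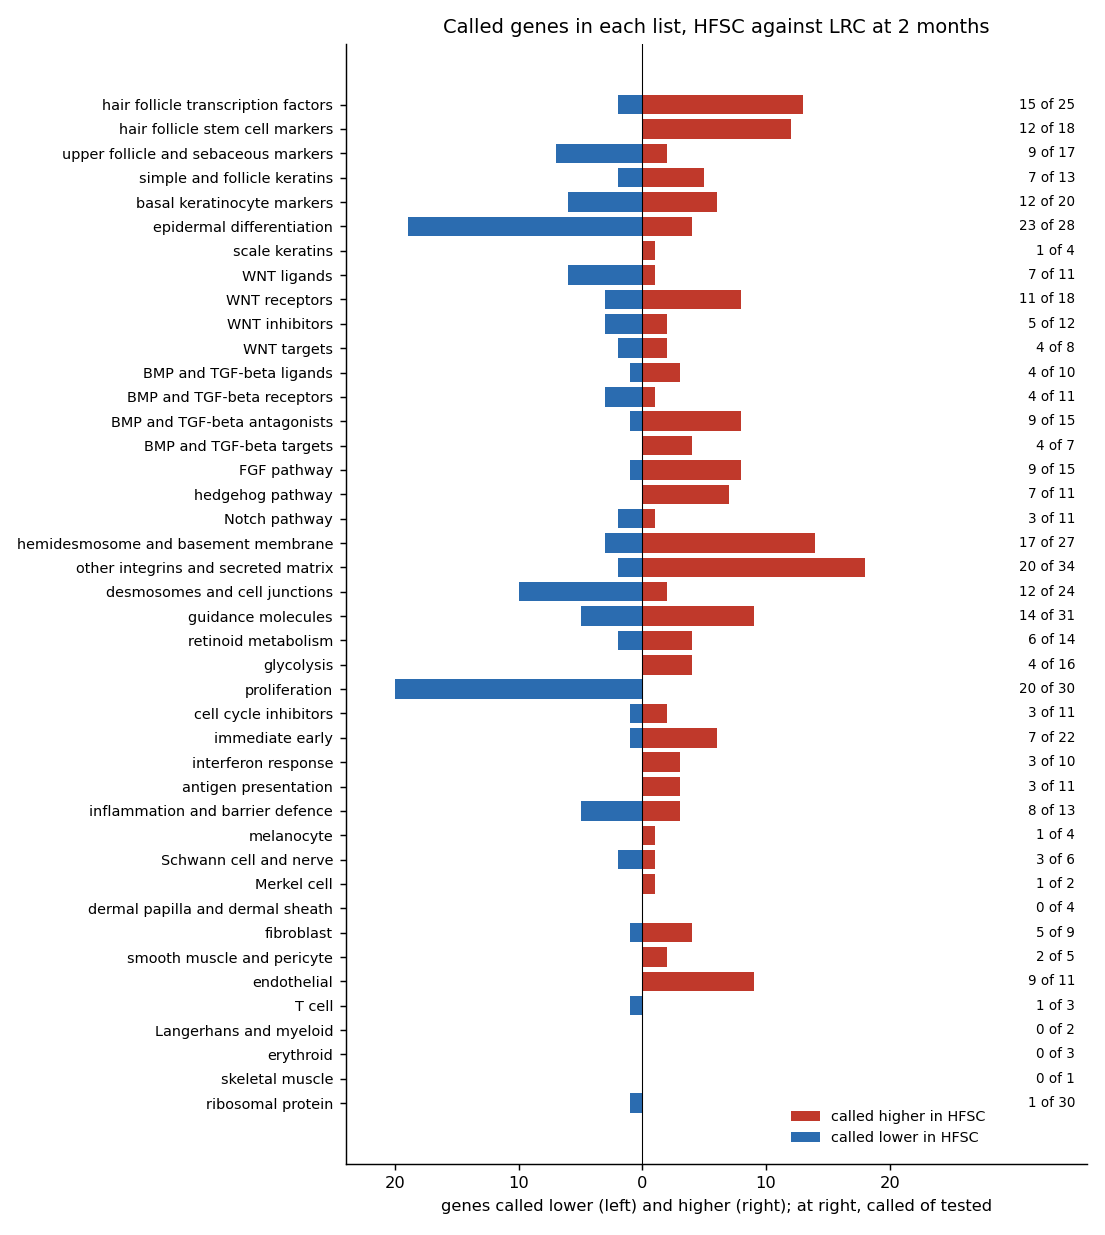
Bars give, for each of 42 gene lists, how many genes were called higher in HFSC (red, to the right) and lower (blue, to the left), and the numbers at the right give called of tested genes. Over all genes tested 9.79% were called higher and 8.23% lower. Proliferation (20) and epidermal differentiation (19) have the longest bars to the left.

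Of 11 WNT ligands tested, 6 were called lower in HFSC and Wnt9a higher, beside 8.23% and 9.79% of all genes. Without each library in turn, 4 or 5 were called lower. Wnt3 stood at 1.04, 0.772 and 0.298 CPM in HFSC and at 35.05, 20.03 and 15.1 CPM in LRC (-5.10 ± 0.50, adjusted p = 0.000574). Wnt16 stood at 0.189, 0.617 and 0.373 CPM against 11.02, 9.59 and 11.2 CPM (-4.81 ± 0.39), and Wnt4 at 42.1, 38.9 and 42.2 CPM against 87.3, 87.3 and 84.8 CPM (-1.07 ± 0.10). The gap was wide for the first pair and narrow but clear of the spread for Wnt4. Wnt9a, at 1.19 to 3.21 against 0.185 to 0.572 CPM, rose by 2.66 ± 0.65 with an adjusted p of 0.0269, a call lost without HFSC replicate 1 (0.118), HFSC replicate 2 (0.0774), LRC replicate 2 (0.123) or LRC replicate 3 (0.0803).

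Of 18 WNT receptors, 8 were called higher and 3 lower, beside 9.79% and 8.23% of all genes (median 0.66). Without each library in turn 8 were called higher. Fzd4, which endothelium also uses, stood at 18.2, 15.3 and 19.9 CPM in HFSC and at 0.715, 0.767 and 0.800 CPM in LRC (4.53 ± 0.23, adjusted p = 4.05e-05). Fzd2 stood at 15.8, 20.1 and 23.4 CPM against 1.29, 1.07 and 1.54 CPM (3.91 ± 0.25). Fzd3 rose by 1.74 ± 0.18 and Fzd5 by 1.94 ± 0.21, while Fzd10 was lower, at 2.17, 1.85 and 2.91 CPM against 17.9, 20.4 and 23.5 CPM (-3.12 ± 0.23). Of 12 inhibitors tested, 2 were called higher, 3 lower and 7 had no call (median -0.10), 41.7% called against 18.0% of all genes. Without LRC replicate 1, 4 were called higher. The secreted inhibitor Sfrp1 stood at 319, 355 and 348 CPM in HFSC and at 17.0, 23.9 and 28.4 CPM in LRC (3.88 ± 0.21, adjusted p = 5.56e-05), and Dkk3 rose by 2.63 ± 0.26. Apcdd1, a membrane inhibitor and known target of the pathway, fell by 3.40 ± 0.39, Rnf43, a ligase that removes frizzled receptors, by 0.71 ± 0.13, and the corepressor Tle1 by 0.93 ± 0.21 on the log2 scale. The call of Tle1 was lost without any 1 library other than LRC replicate 1, with adjusted p up to 0.101.

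Targets were split. The feedback gene Axin2 stood at 6.33, 10.03 and 6.93 CPM in HFSC and at 22.7, 26.6 and 27.8 CPM in LRC (-1.74 ± 0.21, adjusted p = 0.00145), and Ccnd1, cyclin D1, fell by 0.91 ± 0.14 on the log2 scale. Lef1, a transcription factor of the pathway, stood at 6.04, 17.4 and 8.57 CPM against 1.50, 2.07 and 1.60 CPM (2.61 ± 0.43, adjusted p = 0.00597). Tcf7 rose by 0.84 ± 0.16 (adjusted p = 0.0105), a call lost without LRC replicate 2 (adjusted p = 0.0593).

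In the BMP and TGF-beta pathway, of 10 ligands tested, 3 were called higher and Bmp7 lower, beside 9.79% and 8.23% of all genes. Bmp2 stood at 32.3, 36.9 and 23.2 CPM in HFSC and at 9.73, 8.67 and 8.55 CPM in LRC (1.77 ± 0.20, adjusted p = 0.00108), and Bmp7 at 39.9, 42.6 and 31.5 CPM against 66.0, 69.7 and 68.4 CPM (-0.84 ± 0.14). Bmp4 and Bmp6, ligands known in the follicle niche, had no call and were at or under 9.73 CPM. Among 11 receptors the co-receptor Eng, itself an endothelial gene, was called higher, and Tgfbr3, Bmpr1b and Tgfbr2 lower. Tgfbr3 stood at 22.0, 27.8 and 31.6 CPM against 93.8, 92.9 and 91.0 CPM (-1.77 ± 0.15, adjusted p = 0.000331). Tgfbr2, with -0.67 ± 0.14, lost its call without HFSC replicate 1 (adjusted p = 0.0571) and without LRC replicate 2 (adjusted p = 0.052).

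Of 15 antagonists and latency proteins, 8 were called higher and Fst lower, beside 9.79% and 8.23% of all genes (median 0.90). Without LRC replicate 2, 5 were called higher. Beside Grem1, the latent TGF-beta binding protein Ltbp2 stood at 168, 165 and 139 CPM in HFSC and at 2.58, 2.23 and 0.369 CPM in LRC (6.54 ± 0.49, adjusted p = 0.000173). Ltbp3 stood at 152, 128 and 157 CPM against 53.3, 52.6 and 56.1 CPM (1.43 ± 0.12), and Ltbp4 rose by 0.90 ± 0.16. Nog, the antagonist noggin, was at 0.554 to 3.24 CPM and had no call.

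The Id genes, which block basic helix-loop-helix factors and are direct targets of BMP signalling, were all higher. These were the 4 of 7 targets called, beside 9.79% of all genes called higher. Id2 stood at 129, 87.4 and 115 CPM in HFSC and at 5.44, 4.14 and 5.72 CPM in LRC (4.43 ± 0.21, adjusted p = 3.1e-05). Id4 stood at 49.2, 32.3 and 28.1 CPM against 3.65, 5.29 and 2.46 CPM (3.27 ± 0.33, adjusted p = 0.000655). Id3 rose by 1.92 ± 0.28 and Id1 by 1.75 ± 0.27 (adjusted p = 0.00353 and 0.00407), and no HFSC library of the 4 genes overlapped an LRC library, as was so for 19.2% of all genes tested in that direction.

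Because the Id genes moved together, the 250 bases before the RefSeq start of Id2, Id3 and Id4 are given from RefSeq (build GRCm38.p6, 5′ to 3′ on the strand of the gene). Of the 4 genes, Id1 is named only. Capitals mark the palindrome GGCGCC, known as a binding element of BMP-activated SMAD proteins. It was found once each before Id2 and Id4 and not before Id3, and 9.59% of 32851 windows of this length hold it. The GLI site GACCACCCA was searched on both strands and found in 0.225% of windows and in none of the 3. A match describes the letters only. The windows of Id2 and Id3 lie inside the bounds that GENCODE M21 gives these genes, which reach further upstream than the RefSeq start used, and that of Id4 lies outside. The Id2 window is chr12:25096093-25096342 on the minus strand, the Id3 window chr4:136143572-136143821 and the Id4 window chr13:48260866-48261115, both on the plus strand.
Id2: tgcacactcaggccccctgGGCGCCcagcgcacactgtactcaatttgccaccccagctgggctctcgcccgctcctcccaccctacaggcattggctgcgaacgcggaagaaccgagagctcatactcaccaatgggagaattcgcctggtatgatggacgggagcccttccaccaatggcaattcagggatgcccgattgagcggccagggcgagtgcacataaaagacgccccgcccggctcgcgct
Id3: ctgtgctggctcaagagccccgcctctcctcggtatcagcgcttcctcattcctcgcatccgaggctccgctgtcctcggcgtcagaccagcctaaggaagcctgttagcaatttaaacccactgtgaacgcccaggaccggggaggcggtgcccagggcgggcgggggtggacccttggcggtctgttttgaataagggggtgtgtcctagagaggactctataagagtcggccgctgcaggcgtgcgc
Id4: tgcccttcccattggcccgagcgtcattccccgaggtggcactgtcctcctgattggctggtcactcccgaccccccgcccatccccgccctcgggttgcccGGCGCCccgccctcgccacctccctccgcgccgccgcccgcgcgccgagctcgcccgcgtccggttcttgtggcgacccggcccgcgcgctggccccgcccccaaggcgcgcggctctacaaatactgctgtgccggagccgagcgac

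FGF genes were mostly higher, with 8 of 15 called higher and Fgfbp1, a carrier of FGF ligands, lower (median 0.94). Over all genes these shares were 9.79% higher and 8.23% lower. The ligand Fgf1 stood at 125, 106 and 88.8 CPM in HFSC and at 9.94, 5.76 and 6.96 CPM in LRC (3.82 ± 0.24, adjusted p = 8.84e-05), with 35.5% of its reads in exons. The receptor Fgfr1 stood at 245, 307 and 212 CPM against 81.9, 56.0 and 49.8 CPM (2.03 ± 0.23). Feedback inhibitors of the pathway rose as well: Dusp6 by 2.10 ± 0.25, Spry2 by 1.27 ± 0.17 and Spry4 by 3.94 ± 0.62. Fgfbp1 stood at 11.99, 5.56 and 5.89 CPM against 83.7, 58.6 and 51.7 CPM (-3.04 ± 0.33).

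Hedgehog genes were called higher in 7 of 11 tests and lower in none, beside 9.79% and 8.23% of all genes (median 1.13). Gli1, a transcription factor and target of the pathway, stood at 9.25, 7.87 and 8.94 CPM in HFSC and at 0.358, 0.384 and 0.431 CPM in LRC (4.44 ± 0.31, adjusted p = 0.000132). Gas1, a co-receptor, stood at 90.9, 138 and 153 CPM against 31.9, 48.9 and 47.9 CPM (1.57 ± 0.24). Gli3 rose by 1.33 ± 0.17 and Gli2 by 1.19 ± 0.22, with 32.9% and 22.8% of their reads in exons, and the co-receptor Cdon by 1.15 ± 0.15. The signal transducer Smo had no call (-0.16 ± 0.13), and the ligand Shh had reads in 1 LRC library alone. Of 11 Notch genes tested, Lfng was called higher and Notch3 and Notch2 lower, 27.3% against 18.0% of all genes, and without any 1 library at most 1 of the receptors kept its call. Lfng was not called without HFSC replicate 1, HFSC replicate 2 or LRC replicate 2. Notch3 stood at 11.2, 5.71 and 17.3 CPM against 39.0, 39.1 and 47.8 CPM (-1.85 ± 0.34, adjusted p = 0.00911, and 0.0522 without HFSC replicate 1).

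**Figure D4:**
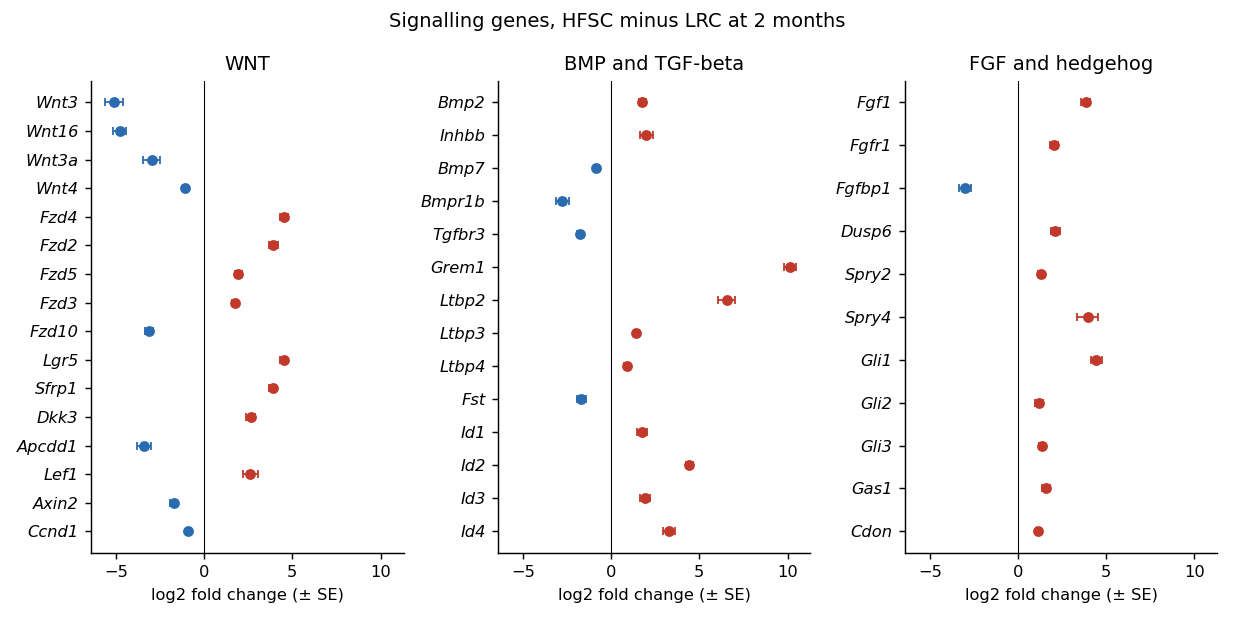
Fitted log2 fold change (HFSC minus LRC, ± SE, 3 libraries a group) of called genes in 3 groups of pathways, red where higher and blue where lower in HFSC. The WNT ligands drawn (Wnt3, Wnt16, Wnt3a and Wnt4), Fzd10 and Axin2 lie to the left, and 4 frizzled receptors and Lef1 to the right. Wnt9a and Tcf7, both called higher, are among the called genes not drawn. The 4 Id genes all lie to the right, and the value of Grem1 rests on 2 reads in LRC.

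Genes of the basement membrane and hemidesmosome, the anchors of basal cells, were called higher in 14 of 27 tests and lower in 3 (median 0.72). Over all genes these shares were 9.79% and 8.23%. Without LRC replicate 2, 9 were called higher. Egfl6, which bulge cells are known to secrete, stood at 48.8, 33.6 and 22.7 CPM in HFSC and at 1.36, 1.15 and 0.431 CPM in LRC (5.17 ± 0.45, adjusted p = 0.000337). Col4a1 stood at 61.3, 65.3 and 98.7 CPM against 3.86, 1.46 and 0.862 CPM (5.198 ± 0.491), and Col4a2 rose by 5.29 ± 0.54. The endothelial sum was lowest in HFSC replicate 1 and highest in HFSC replicate 2. Both collagens, also made by endothelium, were lowest in HFSC replicate 1, with HFSC replicate 2 close to it, and highest in HFSC replicate 3. The part of endothelial RNA in their values was not tested. Lamb3, a chain of laminin 332, stood at 566, 484 and 442 CPM against 208, 213 and 189 CPM (1.29 ± 0.15). Col17a1, the transmembrane collagen of hemidesmosomes, stood at 3272, 3128 and 3255 CPM against 2314, 1779 and 1774 CPM (0.72 ± 0.19, adjusted p = 0.0398). That call was lost without HFSC replicate 1 (0.0646), HFSC replicate 3 (0.122), LRC replicate 1 (0.0544), LRC replicate 2 (0.198) or LRC replicate 3 (0.153), all of them adjusted p, and also with the replicate block, a term for the library set, the first library set alone or a filter of 10 reads in every library, with adjusted p from 0.0506 to 0.364. Fras1 and Frem2, partners in one complex below the epidermis, were lower: Frem2 stood at 16.1, 20.8 and 15.9 CPM in HFSC and at 65.9, 62.5 and 57.4 CPM in LRC (-1.82 ± 0.15), and Fras1 fell by 2.77 ± 0.32 on the log2 scale. The third, Fbln7, a fibulin, stood at 0.755, 0.617 and 0.596 CPM against 3.58, 4.99 and 3.51 CPM (-2.60 ± 0.41, adjusted p = 0.0047).

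Other integrins and secreted matrix proteins were called higher in 18 of 34 tests and lower in 2, beside 9.79% and 8.23% of all genes (median 1.40). Without LRC replicate 2, 11 were called higher. Tnc, tenascin C, stood at 184, 114 and 141 CPM in HFSC and at 17.2, 14.1 and 10.9 CPM in LRC (3.38 ± 0.24, adjusted p = 0.000141). Thbs1, thrombospondin 1, stood at 550, 462 and 684 CPM against 52.5, 29.9 and 20.7 CPM (4.04 ± 0.37). Sparc, a matrix protein that endothelium also makes, stood at 414, 303 and 334 CPM against 74.5, 96.6 and 87.0 CPM (2.02 ± 0.17). Col6a2, from the fibroblast list, stood at 80.2, 69.3 and 56.3 CPM against 2.43, 1.23 and 0.800 CPM (5.53 ± 0.36). The 2 lower genes were Igfbp2 (-4.33 ± 0.47) and Efemp1. Efemp1, a fibulin, stood at 0.189, 1.24 and 0.298 CPM against 13.9, 16.1 and 7.57 CPM (-4.64 ± 0.62, adjusted p = 0.00223), with 30.1% of its reads in exons.

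Guidance molecules were called higher in 9 of 31 tests and lower in 5, beside 9.79% and 8.23% of all genes. Sema3e, a repellent ligand, stood at 195, 244 and 160 CPM in HFSC and at 4.51, 1.69 and 1.29 CPM in LRC (6.33 ± 0.45, adjusted p = 0.000142). Its receptor Plxnd1, also an endothelial gene, stood at 13.1, 34.1 and 30.3 CPM against 4.36, 4.30 and 4.49 CPM (2.55 ± 0.35). Like the vessel markers, Plxnd1 was lowest in HFSC replicate 1. Epha4, an ephrin receptor, stood at 7.93, 10.7 and 14.0 CPM against 95.6, 123 and 136 CPM (-3.44 ± 0.24, adjusted p = 0.000132), with 35.7% of its reads in exons.

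Retinoid genes were called higher in 4 of 14 tests and lower in 2, beside 9.79% and 8.23% of all genes. Crabp2, the carrier of retinoic acid to its receptor, stood at 39.3, 28.9 and 50.4 CPM in HFSC and at 14.4, 15.0 and 17.7 CPM in LRC (1.34 ± 0.22, adjusted p = 0.00537), while Rdh12, a retinol dehydrogenase, fell by 2.55 ± 0.37 on the log2 scale. The other gene called lower, Stra6, lost its call without HFSC replicate 2, HFSC replicate 3, LRC replicate 2 or LRC replicate 3, with adjusted p of 0.107, 0.0836, 0.132 and 0.0827. Glycolysis genes were called higher in 4 of 16 tests, against a background of 9.79%. Pfkp, a phosphofructokinase, stood at 247, 255 and 200 CPM against 136, 112 and 98.5 CPM (1.02 ± 0.17). Only 2 of the 4 were called without HFSC replicate 1, HFSC replicate 3, LRC replicate 2 or LRC replicate 3.

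Chemokines and defence genes were split, with 3 of 13 called higher and 5 lower, beside 9.79% and 8.23% of all genes. Cxcl14, a chemokine of epithelia, stood at 1162, 622 and 680 CPM in HFSC and at 63.6, 52.4 and 51.5 CPM in LRC (3.88 ± 0.28, adjusted p = 0.000161). Cxcl12 stood at 31.1, 33.6 and 45.8 CPM against 1.50, 2.15 and 2.09 CPM (4.26 ± 0.24). Il34, the cytokine that sustains Langerhans cells, stood at 5.67, 4.63 and 6.48 CPM against 37.3, 26.3 and 18.6 CPM (-2.27 ± 0.28), with 16.2% of its reads in exons. The number called lower was 2 or 3 without HFSC replicate 1, 2 or 3 or without LRC replicate 2. Interferon and antigen presentation genes had 3 calls each, all higher, of 10 and 11 tested, beside 9.79% of all genes called higher. Of either list 1 was called without HFSC replicate 1, HFSC replicate 3 or LRC replicate 2, and without HFSC replicate 2 there were 5 in antigen presentation.

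Proliferation genes were lower in HFSC than in LRC. All 30 tested had a negative fold change, 20 were called lower, beside 8.23% of all genes, and the median was -1.71. Mki67, the marker Ki-67 of cycling cells, stood at 85.0, 59.0 and 115 CPM in HFSC and at 353, 505 and 685 CPM in LRC (-2.57 ± 0.32, adjusted p = 0.00168). Cenpf, a kinetochore protein, stood at 16.6, 16.8 and 33.2 CPM against 71.5, 132 and 211 CPM (-2.62 ± 0.44, adjusted p = 0.0062). The spread within LRC was wide, with replicate 1 the lowest in both genes, and the groups did not overlap. The number called was 3 without HFSC replicate 1, 5 without HFSC replicate 2, 6 without LRC replicate 2 and 10 without LRC replicate 3, and 29 without LRC replicate 1. Of 11 inhibitors of the cell cycle, Btg2 and Gas1 were called higher and Cdkn2c lower, 27.3% against 18.0% of all genes. The call of Cdkn2c was lost without HFSC replicate 1 or 2 or LRC replicate 2 or 3 (adjusted p 0.0637 to 0.0816). Btg2 stood at 68.5, 36.1 and 74.5 CPM against 13.0, 8.52 and 11.8 CPM (2.43 ± 0.30). Immediate early genes, which dissociation of tissue is known to induce, were called higher in 6 of 22 tests and lower in 1. Over all genes these shares were 9.79% and 8.23%. The number called higher was 1 without LRC replicate 2 and 11 without LRC replicate 1. It was 2 or 3 without HFSC replicate 1, HFSC replicate 3 or LRC replicate 3. The summed level of the list was 1032 to 1498 CPM in HFSC and 678 to 1039 CPM in LRC.

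The nLRC libraries of 2 months were left out of the fit, and their values are given side by side. Means over 3 libraries, on the scale of all 24 libraries, were 69.5 CPM in HFSC, 2.00 in LRC and 0.190 in nLRC for Lhx2. For Sox9 they were 324, 84.8 and 14.9 CPM, and for Krt8 47.6, 0.365 and 0 CPM. Among genes lower in HFSC, Krt1 averaged 39.1, 2107 and 845 CPM, Ly6a 1.71, 24.2 and 33.1 CPM, and Mki67 80.2, 483 and 342 CPM. Id2 averaged 102 CPM in HFSC, 4.76 in LRC and 29.2 in nLRC. In these means the order was HFSC, LRC, nLRC for Lhx2, Sox9 and Krt8, and nLRC lay between the others for Id2, Krt1 and Mki67.

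The same contrast was then set against 2 years of age, with 3 libraries a group, to ask whether the difference between HFSC and LRC was of the same size. In a fit over all 24 libraries, 443 of 18643 genes (2.38%) had a different HFSC to LRC fold change at 2 years than at 2 months, 202 higher and 241 lower. At 2 years alone no gene was called between HFSC and LRC in edgeR, with 350 genes at an unadjusted p under 0.05. That fit took its spread from all 24 libraries (biological coefficient of variation 0.527) and held no term for replicate. The lack of calls therefore does not show that HFSC and LRC were equal at that age. For the 1423 genes higher in HFSC at 2 months and tested here, the median log2 fold change was 1.37 at 2 months, -0.05 at 1.5 years and 0.07 at 2 years. For the 1197 lower genes it was -1.43, -0.11 and -0.09. The difference between ages was called for 241 of the first and 199 of the second, each of them toward 0. These genes were chosen for their difference at 2 months, and the same 2 month values enter the difference between ages. The choice of genes pushes the medians at 2 months away from 0 and the differences between ages toward 0. These medians, the 2 counts and their direction are therefore a description only.

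Named genes show both sides of that change. Lhx2 averaged 69.5 ± 4.9 CPM (SD, n = 3) in HFSC and 2.00 ± 0.35 in LRC at 2 months, and 17.0 ± 5.6 and 9.95 ± 2.5 CPM at 2 years, a difference between ages of -4.34 ± 0.53 (SE, adjusted p = 8.43e-06). Krt10 averaged 47.6 ± 7.6 CPM in HFSC and 1889 ± 79.9 in LRC at 2 months, and 2460.0 ± 798 and 2434 ± 237 CPM at 2 years (5.32 ± 0.45, adjusted p = 3.35e-08). The libraries labelled HFSC at 2 years thus had a mean level of Krt10 close to that of LRC of that age. Cd34 averaged 140 CPM in HFSC at 2 months and 10.3 CPM at 2 years, and 0.325 and 3.76 CPM in LRC (-7.23 ± 0.77). Ano1, a chloride channel, averaged 4.08 and 98.8 CPM at 2 months and 81.5 and 73.5 CPM at 2 years (4.75 ± 0.33).

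At 1.5 years, with 2 libraries a group, edgeR called 490.0 of 18643 genes between HFSC and LRC, with 3464 at an unadjusted p under 0.05. The HFSC libraries of that age held 5182612 and 5650595 gene reads, and the LRC libraries 8210454 and 7523147. Exons took 44.9% and 31.5% of these reads in HFSC and 46.1% and 39.1% in LRC. The 2 HFSC libraries differed in some genes, with Lgr5 at 30.4 and 128.5 CPM. No test of the difference between that age and 2 months was made. Krt10 there had a log2 fold change of 0.11 ± 0.36, Cd34 of 0.11 ± 0.59, Ctgf of 0.49 ± 0.44 and Lhx2 of -1.14 ± 0.45. Krt5 had values near 0 at 2 months and 2 years (0.02 ± 0.23 and -0.01 ± 0.23). At 1.5 years it stood at 2215 and 1587 CPM in HFSC and at 2631 and 2601 CPM in LRC. For Krt15 the difference between 2 years and 2 months was -1.33 ± 0.40 and did not pass the test (adjusted p = 0.0924), nor did those of Tcf7l1 (adjusted p = 0.163) and Nfatc1 (adjusted p = 0.207). Vwf averaged 54.7 CPM in HFSC at 2 months and 6.66 CPM at 2 years, with a difference between ages that did not pass the test (adjusted p = 0.0978). The part of endothelial RNA in the differences of other genes was not tested.

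**Figure D5:**
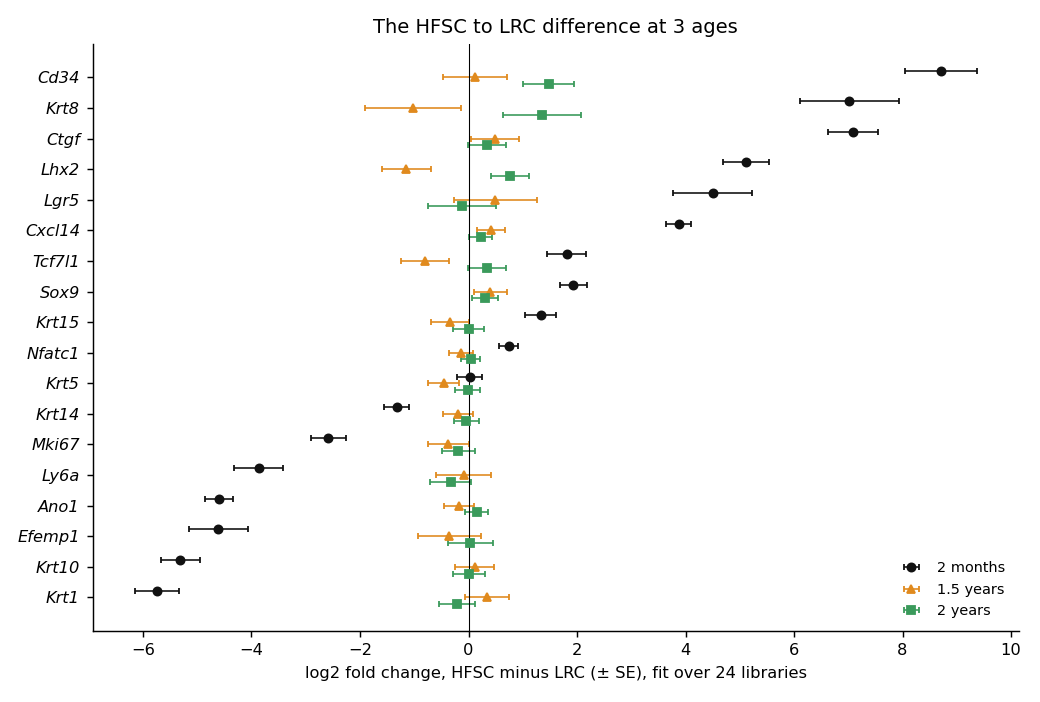
Log2 fold change, HFSC minus LRC, with SE, from the fit over 24 libraries, at 2 months (black circles, 3 libraries a group), 1.5 years (orange triangles, 2 a group) and 2 years (green squares, 3 a group). At 2 months the genes run from Cd34 at 8.71 to Krt1 at -5.75, and at 2 years from 1.48 to -0.33.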

How the data were processed

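Total RNA of sorted cells was sequenced from a SMARTer stranded pico kit, per the labels' protocols, with reads placed on mm10, per the submitters' processing notes. The aligner, the counter and the use of strand are not given in the sources used here, so overlapping and antisense genes cannot be told apart. The deposited table of each library holds, per the file headers, total gene reads (whole read counts over exons and introns), exon reads as RPKM made by the authors, and TPM made by the authors. Total gene reads were used. Exon shares and exon reads came from the deposited RPKM, with whole reads recovered for 28817 of 28818 genes with a value above 0, within 0.02 reads. TPM was not tested.

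Counts were fitted in edgeR 4.0.16 (R 4.3.3, limma 3.58.1) with TMM factors, its expression filter and robust quasi-likelihood F tests over 6 libraries (4 residual degrees of freedom, biological coefficient of variation 0.301), with Benjamini-Hochberg adjustment over 14548 genes and a threshold of 0.05. CPM are scaled by the TMM factors of the 6 libraries, or of all 24 where ages or nLRC are given, and each SE is the fold change divided by the square root of its F value. The age difference came from a fit over 24 libraries. DESeq2 1.42.0 was an alternative. A ratio against a group with 3 reads or fewer in each library carries an exact binomial interval. Coordinates are from GENCODE M21, matched for 47147 of 49585 genes.

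Named genes were the 12 largest rises and 12 largest falls among called genes whose groups did not overlap, that have an official name and average 3 or more on the log2 CPM scale, up to 5 called genes in each direction of each list, a panel of 22, the 4 smallest p for the age difference, and listed genes without a call where few; some genes that the rule names are not reported here. The members and the 42 lists were chosen with earlier results of these data known.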

Additional observations from a re-analysis of the deposited data

Results flagged for a closer look

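The HFSC to LRC fold change differed between 2 years and 2 months for 443 genes by the test of the difference itself in edgeR. Among named genes higher in HFSC at 2 months, the difference on the log2 scale, 2 years minus 2 months, was -4.34 for Lhx2, -1.63 for Sox9, -7.23 for Cd34, -4.62 for Lgr5, -5.66 for Krt8, -3.65 for Cxcl14 and -6.75 for Ctgf. It was -9.68 for Grem1, a fitted value that depends on the prior count, since LRC at 2 months held 2 reads. Among genes lower in HFSC at 2 months it was 1.28 for Krt14, 5.54 for Krt1, 5.32 for Krt10, 3.53 for Ly6a, 4.65 for Efemp1, 2.40 for Mki67 and 4.75 for Ano1. The 2 month values that place these genes as higher or lower also enter the differences, so the direction is a description only. Age and any difference in how the animals of each age were sorted cannot be told apart.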

How the results depend on the processing

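The 2621 genes called at 2 months were 1137 with all 24 libraries in the fit, 1263 with replicates 1 and 2 only and 743 when tested against a log2 fold change of 1. Leaving out 1 library gave 1295 to 2586, with 1657 without HFSC replicate 1, 1720 without HFSC replicate 3 and 1295 without LRC replicate 2. The other scalings, filters, tools and terms gave 2268 to 3219. The median log2 fold change was -0.24 with no low-count filter. The 443 genes that differed between ages were 719 in DESeq2, 713 with no low-count filter, 871 with 12 libraries in the fit and 1500.0 with the replicate block within age, and 274 to 382 without 1 library, lowest without LRC 2m replicate 2. The cause of these shifts was not tested. Whether replicate numbers pair the samples was not settled. At 2 months the correlation of deviations from the group means was 0.005, 0.232 and 0.487 for numbers 1, 2 and 3. For unequal numbers it ran from -0.475 to 0.346, and HFSC replicate 2 correlated best with LRC replicate 1 (0.346). No such correlation was computed at 2 years. With the replicate block 3080.0 genes were called at 2 months. Of the 196 named genes called, 121 kept the call under all 16 alternatives other than the fold limit, 75 lost it at least once and 0 changed direction. Depth limits low genes, since 3 reads are 0.185 to 0.463 CPM.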
